A study of Mus musculus with 6 samples.

Results

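This account covers 33 genes, 23 immediate early genes and 10 heat shock genes, in the back skin of e18.5 mice. They were taken by gene symbol from the platform annotation, each represented by its brightest probe set by mean log2 signal over the 6 arrays, out of 18193 genes with a probe set of 1 symbol. The study compared 3 Get1 +/+ with 3 Get1 -/- mice, with the same region of back skin on 1 array per mouse. The age of e18.5 is that of the series text, while the sample labels give e18. Get1 is an earlier name of grainyhead-like 3 (Grhl3), a transcription factor of the epidermis, and neither the altered stretch of the gene nor the strain is given in the labels. Whole skin was used, so fewer cells of a type and less RNA per cell cannot be told apart. Values are MAS5 signals in arbitrary units, scaled on every array to a trimmed mean of 500, and differences are given on the log2 scale as Get1 -/- minus Get1 +/+ with limma's standard error (SE). The number of arrays limits the precision. The Grhl3 probe set read 478, 934 and 670 in Get1 +/+ and 246, 413 and 380 in Get1 -/- skin, a log2 difference of -0.98 ± 0.28 (limma, adjusted p = 0.497).

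Immediate early genes are switched on within minutes of a stimulus, with no need for new protein synthesis. Kinase cascades act on factors already bound at their promoters, among them serum response factor with its ternary complex partners and CREB, and the first products, such as the AP-1 proteins Fos and Jun, drive a second wave of genes. Feedback members such as the phosphatase Dusp1 and the mRNA-destabilising protein Zfp36 then end the response. Heat shock genes encode chaperones and answer a different sensor, heat shock factor 1, which binds repeats of the unit GAA in alternating orientation when unfolded protein accumulates. In skin both groups are known to respond to wounding and to the removal and dissociation of tissue.

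Promoters are shown for some of the members, with motifs of the factors named above. RefSeq promoter sequences (GRCm38.p6) were found for 27 of the 33 genes, and those of Egr1, Egr3, Ier2, Myc, Hsp90aa1 and Hspa8 were not used here. The 250 bases before the transcription start are printed 5′ to 3′ for Fos at chr12:85473640-85473889 (plus strand), Fosb at chr7:19310046-19310295 (minus strand) and Dusp1 at chr17:26508473-26508722 (minus strand). Capitals mark TGACG on either strand (with an overlapping pair in Dusp1), the core of the cAMP response element that CREB and ATF proteins bind.
Fos: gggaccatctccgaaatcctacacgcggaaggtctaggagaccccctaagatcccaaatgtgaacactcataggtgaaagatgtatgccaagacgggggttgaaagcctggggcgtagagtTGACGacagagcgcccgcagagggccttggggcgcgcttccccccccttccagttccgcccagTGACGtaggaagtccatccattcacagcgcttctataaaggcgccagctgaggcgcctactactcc
Fosb: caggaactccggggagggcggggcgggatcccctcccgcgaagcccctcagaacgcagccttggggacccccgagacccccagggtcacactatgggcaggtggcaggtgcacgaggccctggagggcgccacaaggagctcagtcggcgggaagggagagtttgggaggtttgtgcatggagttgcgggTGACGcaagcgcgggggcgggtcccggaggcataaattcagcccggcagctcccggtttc
Dusp1: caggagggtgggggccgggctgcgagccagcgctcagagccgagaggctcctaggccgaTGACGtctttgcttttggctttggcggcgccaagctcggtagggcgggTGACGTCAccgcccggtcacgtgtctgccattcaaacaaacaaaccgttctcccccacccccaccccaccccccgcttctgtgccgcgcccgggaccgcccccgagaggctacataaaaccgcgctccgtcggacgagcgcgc

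The heat shock genes shown are Hspa1a at chr17:34972157-34972406 (minus strand), Hspa1b at chr17:34959239-34959488 (minus strand), Hspb1 at chr5:135887669-135887918 (plus strand) and Hspe1 at chr1:55087898-55088147 (plus strand). Capitals mark GAANNTTC or TTCNNGAA, the pairs of inverted units of a heat shock element. The core TGACG, also present in Hspb1 and Hspe1, is not marked here. Each spelling reads the same on both strands, and neighbouring matches may overlap, as they do in Hspe1.
Hspa1a: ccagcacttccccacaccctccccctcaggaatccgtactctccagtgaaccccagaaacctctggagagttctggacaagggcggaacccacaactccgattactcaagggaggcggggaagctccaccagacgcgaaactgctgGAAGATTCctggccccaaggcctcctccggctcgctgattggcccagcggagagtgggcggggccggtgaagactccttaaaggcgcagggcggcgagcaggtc
Hspa1b: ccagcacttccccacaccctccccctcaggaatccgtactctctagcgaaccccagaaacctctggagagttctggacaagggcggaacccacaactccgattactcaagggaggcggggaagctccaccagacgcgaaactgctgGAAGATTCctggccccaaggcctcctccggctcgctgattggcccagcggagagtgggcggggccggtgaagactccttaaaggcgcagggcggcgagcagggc
Hspb1: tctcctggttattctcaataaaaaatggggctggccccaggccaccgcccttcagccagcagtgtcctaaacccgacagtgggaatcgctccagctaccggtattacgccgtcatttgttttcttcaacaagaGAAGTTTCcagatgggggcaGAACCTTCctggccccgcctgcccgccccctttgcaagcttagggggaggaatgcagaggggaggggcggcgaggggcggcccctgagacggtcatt
Hspe1: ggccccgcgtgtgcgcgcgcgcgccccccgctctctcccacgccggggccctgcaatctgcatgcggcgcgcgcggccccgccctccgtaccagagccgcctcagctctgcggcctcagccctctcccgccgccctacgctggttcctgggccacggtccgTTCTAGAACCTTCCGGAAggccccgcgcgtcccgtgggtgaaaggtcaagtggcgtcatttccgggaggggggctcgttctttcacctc

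A pair of inverted heat shock units lay within these 250 bases in 6 of 8 heat shock genes (Hspa1a, Hspa1b, Hspb1, Hspd1, Hspe1 and Hsph1) and in 2 of 19 immediate early genes (Egr2 and Jun), against 14.5% of 27025 genes. These 6 are not independent sequences, since Hspa1a and Hspa1b shared 247 of the 250 bases and the windows of Hspd1 and Hspe1 overlap, running in opposite directions. The core TGACG was present in 11 of 19 immediate early genes and in 5 of 8 heat shock genes, against 19.8% of all genes. These 5 include Hspd1 and Hspe1 with their overlapping windows, so they are not independent sequences either. The serum response element, known as the CArG box, was found in 2 of 19 immediate early genes, Egr2 and Zfp36, in 0 of 8 heat shock genes and in 1.62% of all genes. Only 1 strict spelling within 250 bases before the start was searched, so elements farther upstream or spelled otherwise were not counted. The AP-1 site TGANTCA was found in 0 of 19 immediate early genes, in 1 of 8 heat shock genes, Hspa5, and in 7.82% of all genes. Some genes have more than 1 window of 250 bases, with 32851 windows for the 27025 genes, and a gene was counted if any window held the motif. The 2 Egr2 sites lie in different windows. The serum response elements are shown in capitals with their flanks for Egr2, which had 1 at chr10:67537484-67537513 (plus strand) and 1 at chr10:67537787-67537816 (plus strand), and for Zfp36 at chr7:28379267-28379296 (minus strand).
Egr2, first site: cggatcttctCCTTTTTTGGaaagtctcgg
Egr2, second site: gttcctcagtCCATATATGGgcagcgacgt
Zfp36: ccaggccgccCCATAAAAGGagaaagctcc

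The array of Get1 +/+ replicate 2 stood apart in the immediate early genes, and results that rest on it are given with and without it. On this array 19 of the 23 immediate early genes had their highest signal, against 16.3% of the 11387 genes tested. In 10 of the 23 the signal was at least 2-fold above that of every other array. Of these 10, Fosb lay below the filter on dim probe sets, so that 9 of the 22 tested members met this mark, against 0.272% of all genes tested. On the other 5 arrays 0 immediate early genes stood 2-fold above the next array, where up to 0.132% of all genes did (0.0966% on Get1 -/- replicate 1 and 0.114% on Get1 -/- replicate 2). Of the 4 immediate early genes that were not highest on Get1 +/+ replicate 2, 3 were highest on Get1 +/+ replicate 3 (Egr3, Per1 and Gadd45b; 29.5% of all genes) and 1 on Get1 -/- replicate 1 (Gadd45a; 14.7%). None was highest on Get1 +/+ replicate 1, Get1 -/- replicate 2 or Get1 -/- replicate 3, against 9.68%, 14.5% and 15.3% of all genes. Of the 10 heat shock genes 1, Hspb1, was highest on Get1 +/+ replicate 2, by 1.01-fold over the next array, and 0 were 2-fold above the next array there.

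**Figure D1:**
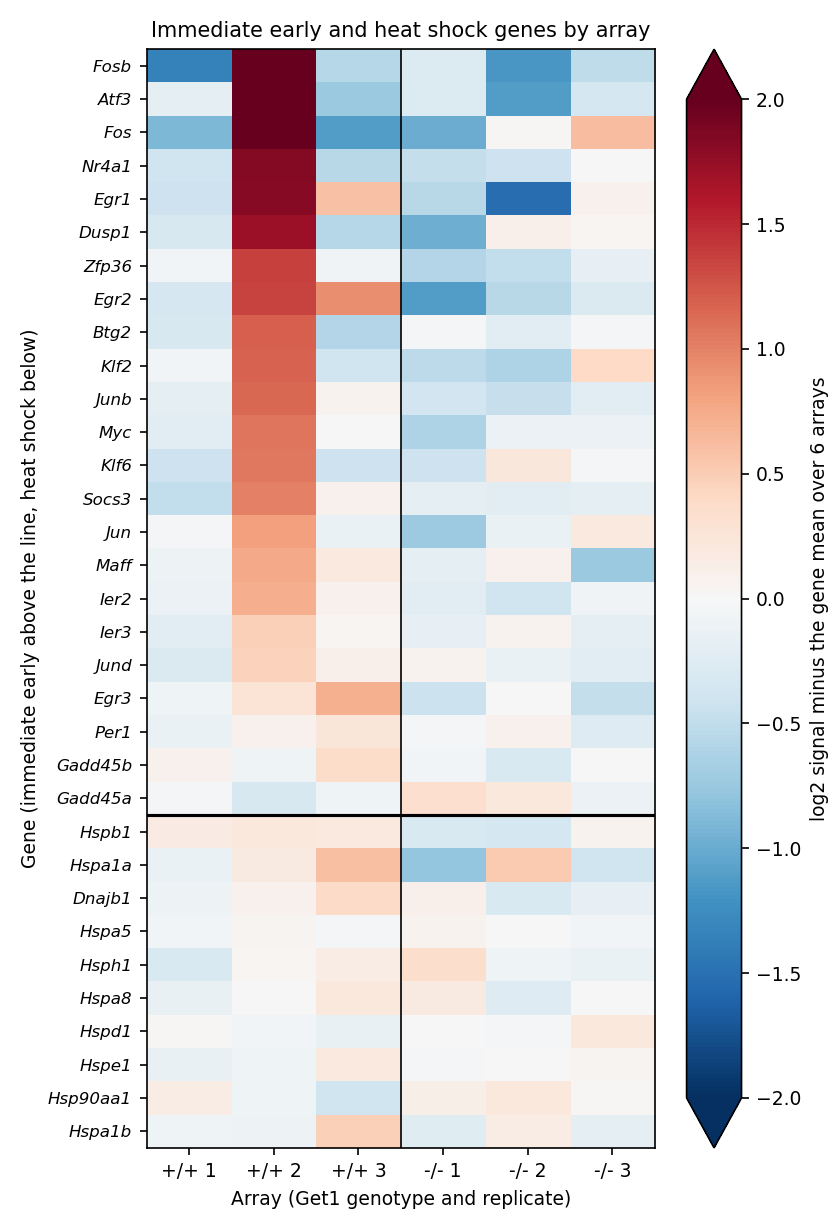
Log2 signal of each gene minus its mean over the 6 arrays, with arrays in columns (Get1 genotype and replicate number) and genes in rows, 23 immediate early genes above the line and 10 heat shock genes below it. Red is above and blue below the gene's mean, and colours saturate at 2. The column of Get1 +/+ replicate 2 is red for most immediate early genes and pale for the heat shock genes.

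Among the AP-1 and related leucine zipper factors all 7 members were highest on Get1 +/+ replicate 2. Fos, the inducible partner of Jun in AP-1, read 1896, 18237 and 1638 in Get1 +/+ and 1790, 3599 and 5446 in Get1 -/- skin. The high array was 3.35-fold above the next, Get1 -/- replicate 3, and the remaining Get1 +/+ arrays lay among or below the Get1 -/- arrays. Fosb, a close relative of Fos, read 32.6, 1238 and 56.1 against 68.8, 37.2 and 58.5, so that 1 array was high while the other 5 lay below the filter on dim probe sets, a signal of 137. The ratio to the next array, 18 as measured, is therefore uncertain. Atf3, a stress-induced factor that pairs with Jun, read 265, 1977 and 182 against 251, 140 and 238, with 1 array 7.46-fold above the next and the other 5 overlapping between genotypes.

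The Jun proteins and Maff moved less. Jun, the core AP-1 subunit, read 3243, 5839 and 3042 in Get1 +/+ and 2009, 3026 and 3811 in Get1 -/- skin, a 1.53-fold lead of Get1 +/+ replicate 2. Junb, which can restrain Jun and has a known role in epidermal inflammation, read 390, 980 and 464 against 340, 320 and 382. All 3 Get1 -/- values of Junb lay below all 3 Get1 +/+ values, but the lower margin was narrow, 382 against 390. Maff, a small Maf factor without a transactivation domain, read 199, 361 and 246 against 188, 227 and 129, with overlap. Jund, the most constitutively expressed Jun gene, ranged from 3239 to 5489, and its highest array was again Get1 +/+ replicate 2.

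The Egr genes, zinc finger factors induced through the serum response element, were arranged differently from Fos. Egr1 read 1949, 9146 and 3901 in Get1 +/+ and 1769, 901 and 2753 in Get1 -/- skin, high on Get1 +/+ replicate 2 and next highest on Get1 +/+ replicate 3. Egr2 read 253, 815 and 608 against 147, 217 and 262, so that 2 Get1 +/+ arrays were above all Get1 -/- arrays and the remaining one, replicate 1, lay just under the highest of them. Egr3 read 2743, 3505 and 4731 against 2147, 2905 and 2093, and here Get1 +/+ replicate 3 was the highest array. On Get1 +/+ replicate 3 the Fos signal was the lowest of the 6, while Egr2 and Egr3 were well up on the same array. The limma log2 differences were -1.33 ± 0.54 for Egr1, -1.30 ± 0.41 for Egr2 and -0.60 ± 0.22 for Egr3, with adjusted p of 0.589, 0.548 and 0.574, and none passed.

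The other immediate early transcription regulators followed Get1 +/+ replicate 2 to different degrees. Nr4a1, an orphan nuclear receptor, read 604, 2855 and 545 in Get1 +/+ and 577, 598 and 808 in Get1 -/- skin, a lead of 3.54-fold over an otherwise flat set of arrays. Myc, a growth-promoting factor, read 867, 2101 and 994 against 649, 924 and 917, a lead of 2.11-fold. The Krüppel-like factors Klf2, known from endothelium, and Klf6 led on the same array by 1.71-fold and 1.76-fold, and Ier2 by 1.57-fold. Per1, a clock gene also induced by glucocorticoids, did not, and ranged only from 862 to 1230 with its highest value on Get1 +/+ replicate 3.

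Of the 7 feedback and growth restraint genes 5 were highest on Get1 +/+ replicate 2. Zfp36, which binds AU-rich mRNA and speeds its decay, read 1029, 2729 and 1010 in Get1 +/+ and 708, 754 and 953 in Get1 -/- skin. Its genotypes did not overlap, and its log2 difference of -0.83 ± 0.35 did not pass (limma, adjusted p = 0.601). Dusp1, which dephosphorylates MAP kinases, led on Get1 +/+ replicate 2 by 3.05-fold within a range of 1301 to 8363. Btg2, an antiproliferative gene, led by 2.31-fold, Socs3, an inhibitor of cytokine signalling, by 1.90-fold, and Ier3 by 1.32-fold. The growth arrest genes Gadd45a and Gadd45b had no such lead. Gadd45a was lowest on Get1 +/+ replicate 2 (265, in a range up to 420) and was the 1 immediate early gene with a higher mean in Get1 -/- skin, by 0.29 ± 0.20 on the log2 scale (adjusted p = 0.735, limma).

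**Figure D2:**
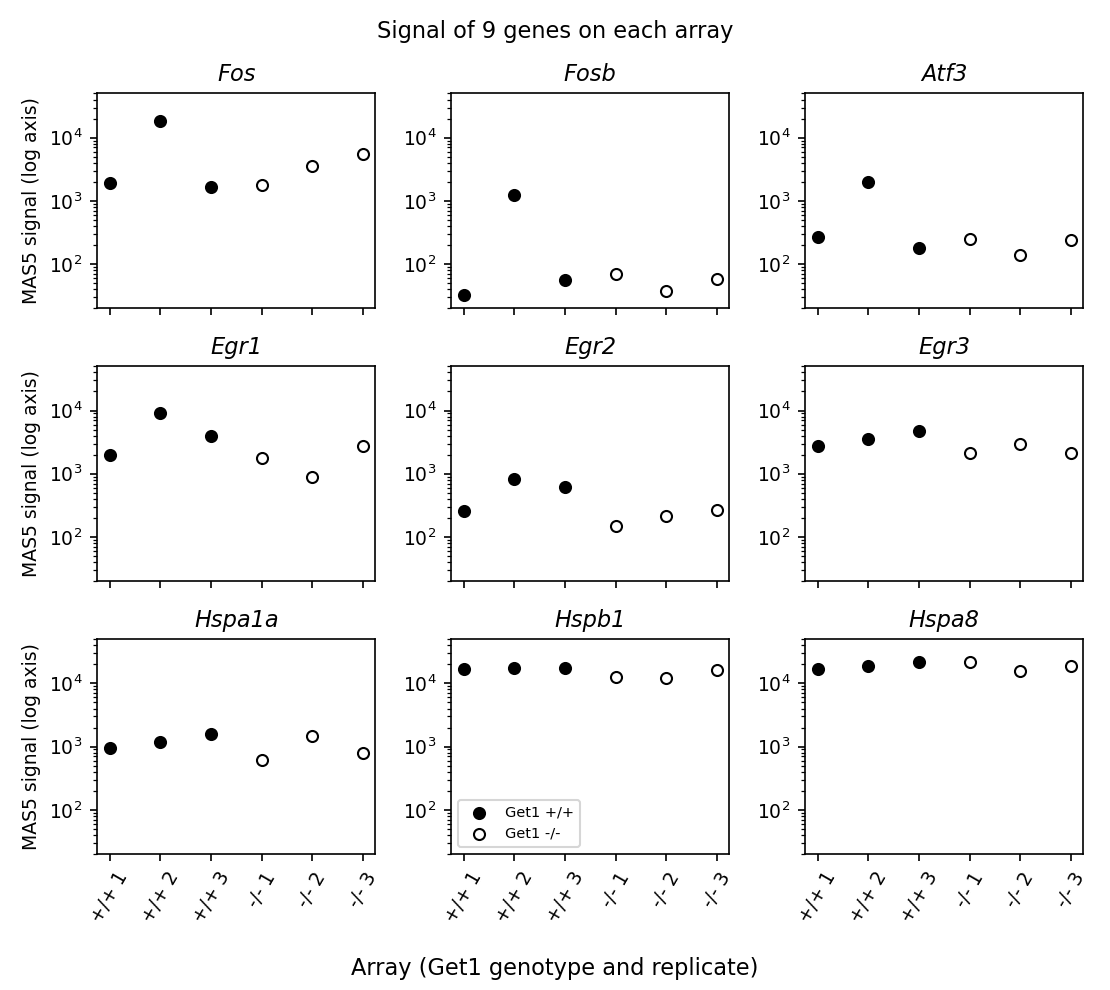
MAS5 signal on a log axis for 9 genes on each of the 6 arrays, with Get1 +/+ arrays as filled and Get1 -/- arrays as open points, 1 point per mouse and the same axis in every panel. Fos, Fosb and Atf3 have 1 high point, at 18237, 1238 and 1977 on Get1 +/+ replicate 2. Egr2 has 2 high Get1 +/+ points, Egr3 varies less with its highest point on Get1 +/+ replicate 3, and the heat shock genes in the bottom row have no point standing apart.

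The highest array was a median of 1.5-fold above the lowest over the heat shock genes, against 3.06-fold over the immediate early genes and 1.54-fold over all genes tested. The range was widest in Hspa1a, at 2.59-fold, and narrowest in Hspa5. Of the inducible cytosolic chaperones, Hspa1a read 939, 1164 and 1567 in Get1 +/+ and 606, 1475 and 786 in Get1 -/- skin. Hspa1b, its near-identical copy, read 5032, 4985 and 7483 against 4554, 5965 and 4670. In both genes Get1 +/+ replicate 3 was the highest array, Get1 -/- replicate 2 the next and Get1 -/- replicate 1 the lowest. The pair encodes almost the same mRNA, and whether their probe sets tell the copies apart is uncertain, so these are not independent readings.

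Hspb1, a small heat shock protein that is abundant in differentiating keratinocytes, had the most even difference between genotypes. It read 17105, 17658 and 17547 in Get1 +/+ and 12383, 12024 and 16083 in Get1 -/- skin, so that all 3 Get1 -/- arrays lay below a tight Get1 +/+ group. Its log2 difference was -0.38 ± 0.13 (95% interval -0.67 to -0.091), and its adjusted p of 0.567 (limma) did not pass. Its other kept probe set, at 13052, 14620 and 13132 against 9585, 9178 and 11345, did not overlap either and differed by -0.44. Across all genes tested, 6.78% were lower in Get1 -/- skin without overlap.

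Dnajb1, the cochaperone that hands substrates to Hsp70, read 2463, 2805 and 3445 in Get1 +/+ and 2840, 2132 and 2368 in Get1 -/- skin, with overlap. Hsp90aa1, the inducible Hsp90, read 10022, 8548 and 6864 against 9872, 10545 and 9221, and its lowest array, Get1 +/+ replicate 3, was the one highest in Hspa1a. Hsph1, a nucleotide exchange factor of Hsp70, ranged from 1210 to 1911. The constitutive Hspa8 read 17101, 18941 and 21866 against 21370, 15912 and 19141. Hspa5, the chaperone of the endoplasmic reticulum also called BiP, read 9391, 10078 and 9586 against 10163, 9710 and 9332, a spread of 1.09-fold from the lowest to the highest array. The mitochondrial chaperonins Hspd1 and Hspe1, which work as a pair, spread by 1.27-fold and 1.28-fold. The 95% intervals of the log2 difference were -0.36 to 0.27 for Hspa8 and -0.23 to 0.25 for Hspa5 (limma).

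Set side by side array by array, the 2 classes parted on 1 array. The median deviation of the immediate early genes from their own means was 1.07 on the log2 scale on Get1 +/+ replicate 2, and -0.20 and -0.0084 on Get1 +/+ replicates 1 and 3. It was -0.38, -0.20 and -0.12 on Get1 -/- replicates 1 to 3. For the heat shock genes the medians were -0.097, 0.021 and 0.20 in Get1 +/+ and 0.027, -0.014 and -0.020 in Get1 -/- skin. The immediate early median exceeded that of the heat shock genes by 1.05 on Get1 +/+ replicate 2 and lay below it on the other 5 arrays, by between 0.10 and 0.40. Each gene's mean includes Get1 +/+ replicate 2, so high values there lower the deviations on the other 5 arrays. Their lower immediate early medians are therefore not a separate result. The heat shock median was highest on Get1 +/+ replicate 3, where 5 of the 10 genes had their highest signal, against 29.5% of all genes tested. Over all genes tested the median deviation lay between -0.042 and 0.062 on every array.

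**Figure D3:**
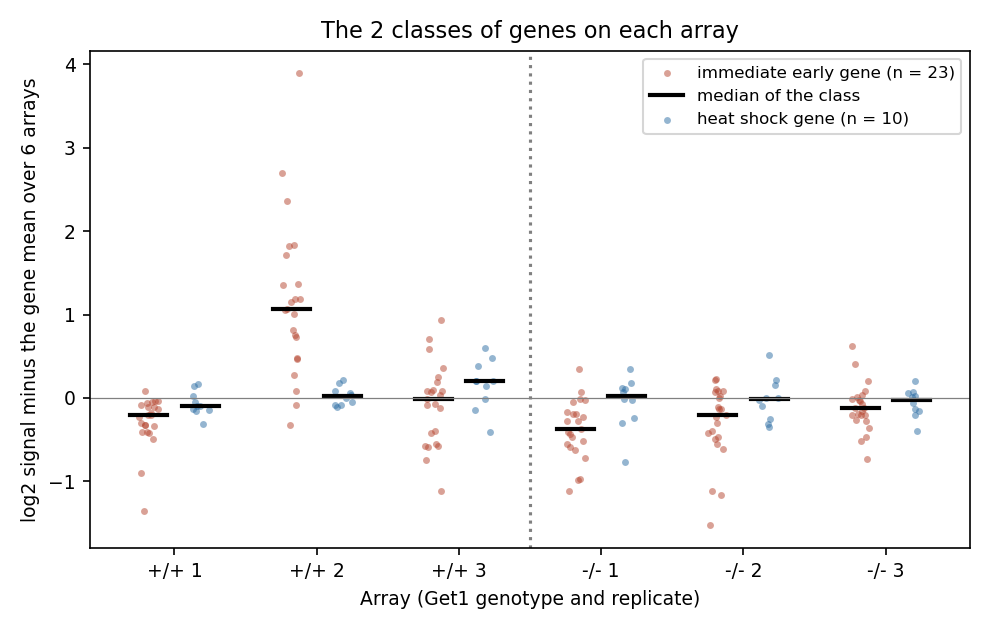
Log2 signal minus the gene's mean over the 6 arrays, for 23 immediate early genes (red) and 10 heat shock genes (blue) on each array, with the class median as a black bar. Points are genes, not replicates. The medians of the classes differ by 1.05 on Get1 +/+ replicate 2 and by at most 0.40 on the other arrays.

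The spread between mice of a genotype differed accordingly. The within-genotype SD of log2 signal had a median of 0.54 over the immediate early genes, 0.20 over the heat shock genes and 0.23 over all genes tested. It was above the 90th percentile of all genes tested, 0.45, in 15 of 23 immediate early genes and in 1 of 10 heat shock genes, Hspa1a. Over the other 5 arrays, whatever their genotype, the median SD was 0.25 in both classes and 0.22 over all genes tested.

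Between genotypes 0 of the 22 immediate early genes tested and 0 of the 10 heat shock genes passed an adjusted p under 0.05 (limma), where 0.0439% of all genes did and 0.0176% did with a lower mean in Get1 -/- skin. With the replicate number as a block 0.386% of all genes passed and again 0 members of either class. At an unadjusted p under 0.05 stood 4 immediate early genes, all lower in Get1 -/- skin (Egr1, Egr2, Egr3 and Zfp36), and 1 heat shock gene, also lower (Hspb1), against 8.18% of all genes in either direction and 4.29% in the lower one. The genotypes did not overlap in 2 immediate early genes, Junb and Zfp36, and in 1 heat shock gene, Hspb1, all lower in Get1 -/- skin, against 12.0% of all genes in either direction, 6.78% lower and 5.20% higher. The mean was lower in Get1 -/- skin for 22 of 23 immediate early genes and for 5 of 10 heat shock genes, against 48.7% of all genes. The median log2 difference was -0.49 over the immediate early genes, -0.017 over the heat shock genes and 0.0076 over all genes tested.

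Most of the immediate early difference rested on Get1 +/+ replicate 2. Without it the median was -0.11, with 14 of 23 genes lower, beside -0.017 and 53.1% over all genes tested. The heat shock median was then -0.032. Fos went from -0.23 ± 0.81 to 0.89 ± 0.39, and Fosb from -1.31 ± 1.13 to 0.31 ± 0.54, while Atf3 went from -1.17 ± 0.74 to -0.11 ± 0.33. Nr4a1, Dusp1, Btg2 and Klf6 also had a higher mean in Get1 -/- skin without that array, by 0.19, 0.17, 0.37 and 0.35. The Egr genes kept lower means in Get1 -/- skin, at -0.75 ± 0.44 for Egr1, -0.95 ± 0.39 for Egr2 and -0.61 ± 0.26 for Egr3, with an adjusted p of 0.975 each (limma). Hspb1 was at -0.37 ± 0.16. Leaving out Get1 +/+ replicate 1 instead, the lowest Get1 +/+ array in the 3 Egr genes, brought Egr2 to -1.80 and an adjusted p of 0.0366 (limma), the only member to pass in the alternatives tried. In that same fit 122 of all 11387 genes passed, or 1.07%.

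**Figure D4:**
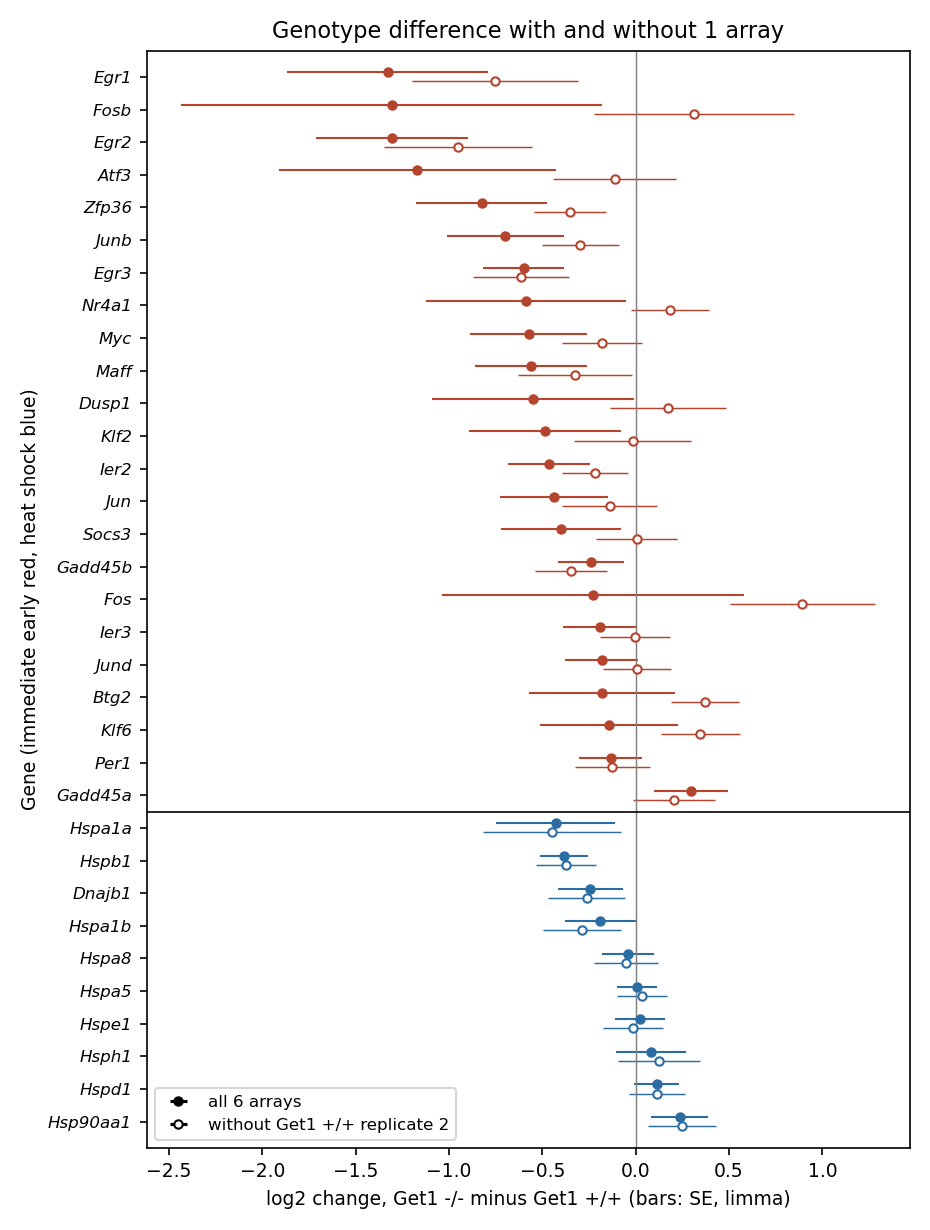
Log2 difference of each gene, Get1 -/- minus Get1 +/+, with all 6 arrays (filled) and without Get1 +/+ replicate 2 (open), immediate early genes in red and heat shock genes in blue, with bars of 1 SE from limma. Fos moves from -0.23 to 0.89 and Atf3 from -1.17 to -0.11, while Egr3 and the heat shock genes stay close to their first value.

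Other probe sets of the same genes gave a second reading. The 7 immediate early genes with a further kept probe set had 11 of them, and all 11 had the sign of the brightest one. All 4 further kept Klf6 probe sets, those of Jun and Btg2 and 1 of 2 of Socs3 were highest on Get1 +/+ replicate 2. The second Egr3 probe set read 232, 169 and 259 in Get1 +/+ and 84.3, 123 and 78.3 in Get1 -/- skin, with no overlap and a log2 difference of -1.22, against -0.60 for the brighter one, and it did not pass over all probe sets (limma, adjusted p = 0.663). The second Egr2 probe set, at 224, 638 and 704 against 249, 167 and 142, had the same pair of high Get1 +/+ arrays as the first. The 8 heat shock genes with further kept probe sets had 13, of which 8 had the sign of the brightest one. A further Dnajb1 probe set differed by -0.58 without overlap, where the brightest differed by -0.24 with overlap.

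Of all 11387 genes tested, 31 were at least 2-fold above every other array on Get1 +/+ replicate 2, and 15 of these were immediate early genes. They comprised the 9 members and 6 of 30 tested genes from a further list of immediate early genes, Ccn1, Csrnp1, Errfi1, Ccn2, Nfkbiz and Sgk1. Ccn1, a secreted matrix protein and target of serum response factor, read 733, 5801 and 931 in Get1 +/+ and 444, 1434 and 1054 in Get1 -/- skin, a lead of 4.05-fold. Csrnp1, a nuclear protein, read 304, 1262 and 301 against 336, 324 and 337, a lead of 3.75-fold over 5 level arrays. The other 16 genes, seen only once their values were known, included the EGF receptor ligand Hbegf (2.09-fold) and the growth factor signalling inhibitor Spry1 (2.07-fold), and also epidermal differentiation genes such as the lipoxygenase Alox12b (2.19-fold) and Sdr9c7 (2.11-fold).

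**Figure D5:**
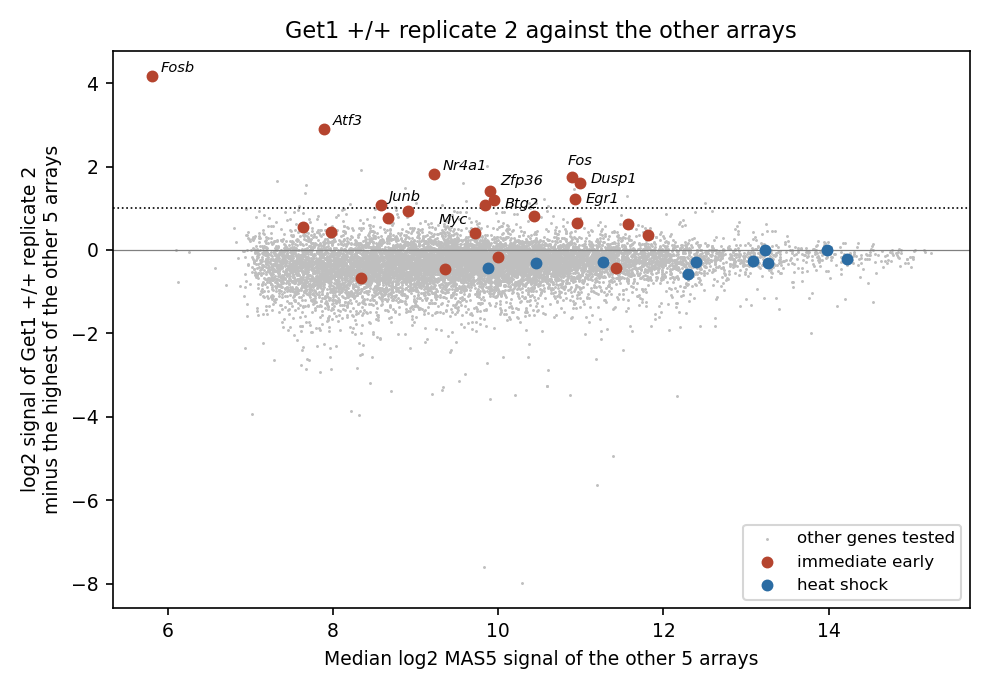
For each gene, the log2 signal on Get1 +/+ replicate 2 minus the highest of the other 5 arrays, against the median log2 MAS5 signal of those 5 arrays. Grey points are other genes tested, red immediate early genes and blue heat shock genes, and the dotted line marks 2-fold. The 10 named immediate early genes lie above the line, and 0 of the 10 heat shock genes do.

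Across that further list, 20 of 30 tested genes were highest on Get1 +/+ replicate 2, against 16.3% of all genes tested. Between genotypes 0 of the 30 passed (limma). The median log2 difference was -0.29, or -0.088 without Get1 +/+ replicate 2. The genes with the smallest p were Ier5, Cebpb, Ppp1r15a and Trib1. The first 3 were the only ones of the 30 lower in Get1 -/- skin without overlap, against 6.78% of all genes tested. Ier5, a growth-factor-induced nuclear protein, read 1603, 1841 and 1936 in Get1 +/+ and 1211, 1153 and 1183 in Get1 -/- skin, a difference of -0.60 ± 0.14 (limma, adjusted p = 0.38) that does not follow the single high array. Cebpb, a leucine zipper factor of keratinocyte differentiation, read 3956, 4727 and 3989 against 2882, 3115 and 3050 (-0.48 ± 0.13, limma adjusted p = 0.486). The eIF2α phosphatase subunit Ppp1r15a differed by -0.51 and the kinase-like scaffold Trib1 by -0.58.

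Of 18 tested kinases and promoter-bound factors upstream of the immediate early response, 5 were highest on Get1 +/+ replicate 2 (Map2k4, Mapk9, Map2k1, Srf and Mapk14, by at most 1.23-fold over the next array), against 16.3% of all genes. None of the 18 was 2-fold above the next array there, 0 passed between genotypes, and the median difference was -0.037. The smallest p were those of Atf2 (0.52 ± 0.22), Rps6ka3 (0.54 ± 0.23), Creb1 (0.58 ± 0.27) and Map2k4 (-0.50 ± 0.23), with adjusted p of at least 0.597 (limma). Among 32 further heat shock factors, chaperones and cochaperones 0 passed, 16 had a lower and 16 a higher mean in Get1 -/- skin, and the median was 0.0038. The smallest p there were those of Chordc1 (0.31 ± 0.17), Hspb2 (0.51 ± 0.28), St13 (0.26 ± 0.16) and the muscle-rich chaperone Cryab (0.37 ± 0.23), all short of the threshold.

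In the unfolded protein response of the endoplasmic reticulum, the pathway that controls Hspa5, 0 of 21 genes passed and the median was -0.041. Herpud1, a component of protein degradation at the endoplasmic reticulum, read 1650, 2114 and 1517 in Get1 +/+ and 1051, 1198 and 1263 in Get1 -/- skin, a difference of -0.58 ± 0.17 (limma, adjusted p = 0.502) without overlap. The response factor Atf4 differed by -0.42 ± 0.16, the chaperone Hyou1 by -0.45 ± 0.18 and the factor Ddit3 by 0.50 ± 0.31, and none passed. Of the 21 genes, 2 were lower in Get1 -/- skin without overlap, Herpud1 and Hyou1, against 6.78% of all genes tested. In the other direction 1 was higher without overlap, Canx, against 5.20%.

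Sums of cell type markers were highest or lowest on Get1 +/+ replicate 2 for some cell types and not for others. Those of basal keratinocyte, dermal fibroblast, endothelium, neutrophil, adipocyte, mast cell, melanocyte and erythroid markers were neither highest nor lowest there. A sum follows its brightest markers, and the mean log2 deviation over markers differed for 3 of these types. It was lowest there for endothelium (-0.19, with 3 of 7 markers lowest) and erythroid markers (-1.74, 2 measured, 1 above the filter). For basal keratinocyte markers it was highest there (0.18, with 2 of 7 markers highest). Of 7 skeletal muscle markers, all measured, 6 were lowest on Get1 +/+ replicate 2, against 23.0% of all genes tested. Their summed signal was 80613 on that array, in ranges of 80613 to 122545 in Get1 +/+ and 94637 to 138424 in Get1 -/- skin. The summed signal of 7 macrophage markers was also lowest there, at 7851, in ranges of 7851 to 11420 in Get1 +/+ and 10302 to 12120 in Get1 -/- skin. Of these 7 markers 3 were lowest there, against the same 23.0% of all genes tested. The sum over 7 suprabasal keratinocyte markers was highest there, at 154938, in ranges of 145532 to 154938 and 109281 to 140088. Of these 7 markers 1 was highest there, against 16.3% of all genes tested. The sum over 2 measured of 4 Schwann cell markers was lowest there, at 715, in ranges of 715 to 953 and 913 to 1288, with neither marker lowest on its own. The part of these shifts in the immediate early signal was not tested. Neutrophil markers were near the bottom of the scale on every array, with 2 of 5 measured markers above the filter. The beta-actin control probe sets averaged 14.6 on the log2 scale on Get1 +/+ replicates 1 and 2 and 14.5 on Get1 -/- replicate 1, and 13.9 to 14.2 on the other 3 arrays. The immediate early medians were 1.07 on Get1 +/+ replicate 2, -0.20 on Get1 +/+ replicate 1 and -0.38 on Get1 -/- replicate 1. With the beta-actin control as a covariate the median log2 difference between genotypes was -0.41 over the immediate early genes, beside -0.49 without it. For the heat shock genes it was -0.028, beside -0.017, and 0 members of either class passed (limma). Whether the actin control bears on the high immediate early signal of Get1 +/+ replicate 2 was not tested.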

How the data were processed

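Total RNA from back skin of 6 mice, 1 array each, was measured on oligonucleotide arrays with biotin-labelled cRNA, per the labels' protocols. The deposited values are linear signal intensities made by the authors with MAS5 (version not given in the sources used here), per the submitters' processing notes, and they were already scaled, with a 2% trimmed mean of 500 on every array. Intensities were turned into log2. After removal of 64 controls, 22519 of 45037 probe sets passed a filter on the mean, set at the median, which equals a signal of 137. Each gene was represented by its brightest probe set among those with 1 symbol, which gave 11387 genes tested. The test was limma 3.58.1 under R 4.3.3 (trend, two-sided, Benjamini-Hochberg over all genes), checked on simulated data. Fosb fell below the filter; its values are from the fit without it. All 33 members are named. Array values are given for up to 10 immediate early and 5 heat shock genes with the largest differences and 8 preset genes; of related lists, up to 4 genes with the smallest p. Dusp1, Ccn1, Csrnp1 and the genes standing high on 1 array were singled out after their values were seen. The members and lists were chosen with earlier results of these data known. Alternatives covered scaling, filter, offset, variance model, array weights, a beta-actin covariate, a replicate block, the mean of probe sets and each array left out. Motifs were searched in RefSeq promoter sequences (GRCm38.p6).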

Additional observations from a re-analysis of the deposited data

How the results depend on the processing

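The 10 heat shock genes and the related lists had 0 calls in every one of the 16 alternatives. The immediate early genes had 0 to 1 with an array left out and 0 in the others. Over all genes 5 passed in limma, or 8 with array weights, 44 with the replicate block and 3 to 122 with an array left out. Over probe sets 6 passed, or 35 with the block and 4 to 25 with an array left out. The 122 came without Get1 +/+ replicate 1. Whether the replicate numbers pair the mice was not settled. Over genes the deviations of same-numbered mice correlated at -0.020, 0.36 and -0.025, and 2 of 6 arrays correlated best with their own number, while over kept probe sets the values were 0.13, 0.26 and 0.14, and 6 of 6 did. The immediate early median ranged from -0.75 to -0.11 with an array left out, the heat shock median from -0.094 to 0.029 and their difference from -0.66 to -0.081.

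Of the 33 members 20 kept the sign of their difference throughout and 13 did not, 9 of them when Get1 +/+ replicate 2 was left out. None of these differences was past the threshold. With the actin covariate Btg2 stood at 0.0035 and Hspe1 at -0.026, with the mean of probe sets Hsph1 at -0.015, Hspa8 at 0.083 and Hspe1 at -0.047, and Hspa5 at -0.0029 with median centring and -0.024 with array weights. With an array left out the ranges were -0.84 to 0.89 for Fos, -2.31 to 0.31 for Fosb, -0.38 to 0.0053 for Jund, -0.39 to 0.35 for Klf6, -1.01 to 0.19 for Nr4a1, -0.97 to 0.17 for Dusp1, -0.75 to 0.0056 for Socs3, -0.52 to 0.37 for Btg2, -0.31 to 0.0047 for Hspa1b, -0.071 to 0.18 for Hsph1, -0.14 to 0.075 for Hspa8, -0.024 to 0.037 for Hspa5 and -0.045 to 0.13 for Hspe1. The cause of these shifts was not tested. Without detection calls, low signals such as those of Fosb have no stated background.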
